A study of Mus musculus with 4 samples.

Results

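The ephrins, Eph receptors, semaphorins, plexins, neuropilins, Slits and Robos were read in single cells of the Tbx1 lineage from mouse embryos at E9.5. The members were chosen by symbol (Epha and Ephb with a number, Efna and Efnb with a digit, Sema3 to Sema7 with a letter, Plxna to Plxnd with a number, Slit1 to Slit3, Robo1 to Robo4, Nrp1 and Nrp2), which gave 60 of the 32285 genes in the count tables. Of these, 31 encode ligands (5 ephrin-A, 3 ephrin-B, 7 class 3 semaphorins, 13 semaphorins of the membrane classes and 3 Slits) and 29 encode receptors (9 EphA, 5 EphB, 9 plexins, 2 neuropilins and 4 Robos).

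The study asked what loss of the histone methyltransferase Kmt2d does in the cells that have expressed Tbx1. GFP+ cells were sorted from the pharyngeal region and heart of cHet embryos (Tbx1Cre/+; Kmt2d F/+; GFP F/+) and cKO embryos (Tbx1Cre/+; Kmt2d F/F; GFP F/+) given in the labels as outbred SwissWebster, while the study's methods describe stocks kept on a mixed background of Swiss Webster and C57BL/6. Both genotypes carry the Cre knock-in, which takes away 1 copy of Tbx1, and the GFP reporter, so the comparison is of 1 against 2 deleted Kmt2d alleles and holds no library with intact Kmt2d or Tbx1. There were 2 libraries per genotype: each Rep1 library pooled 4 embryos (Next GEM v3.1 kit) and each Rep2 library pooled 3 embryos (GEM-X v4.1 kit), so replicate and kit cannot be told apart and p-values rest on n = 2 pools per genotype. By the paper's somite counts, the cKO embryos of Rep2 were at or above the highest count of the cHet embryos of Rep2. In Rep1, the cKO range lay inside the cHet range. Genotype and exact embryonic stage can therefore not be told apart in Rep2.

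These families are the classical guidance cues. Ephrins stay on the cell surface and signal on contact through Eph receptor tyrosine kinases, in both directions. Class 3 semaphorins are secreted and mostly need a neuropilin to bind while a plexin signals, the other semaphorins are mostly bound to the membrane and act on plexins directly, and secreted Slits repel cells through Robos. Beyond axons, they steer neural crest, cardiac progenitors and vessels in the pharyngeal arches and outflow tract.

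After filtering, 5869 cHet and 6291 cKO cells of Rep1 and 9350 cHet and 11938 cKO cells of Rep2 remained, with medians of 17240.5 to 22972 UMIs (unique molecular identifiers, each standing for 1 captured transcript). The library of cHet Rep1 stood apart before filtering: 37093 barcodes were deposited for it against 9307 to 16775 in the others, and its kept cells held 60.04% of its UMIs against 86.1% to 91.6%. The libraries of Rep1 shared 87 cell barcodes, those of Rep2 shared 71, and libraries of different replicates shared 0. Kmt2d read between 12.3 and 25.1 CPM (UMIs of a gene scaled to 1000000 in all) in all cell types and libraries, which checks nothing where the 3′ reads lie outside the deleted part, and the deleted exons are not given in the sources used here. Tbx1 was between 4.52 and 165 CPM. The paper reports depletion of Kmt2d by RT-qPCR in sorted cKO cells at E9.5, against those of Tbx1Cre/+ embryos. In its single-cell data it saw no noteworthy change of Kmt2d or Tbx1 between genotypes.

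Cells were clustered without the member genes and the other guidance genes described below. By their markers, 9 groups were named: multilineage progenitors (MLPs), branchiomeric muscle progenitors (BrM), the anterior and posterior second heart field (aSHF and pSHF), cardiac muscle, endothelium, epithelium (ectoderm and endoderm together), otic vesicle and neuronal cells. Each name means cells like that type: the aSHF, pSHF and cardiac muscle clusters also met the rule for another of these 3, the pSHF cluster that for MLPs, and the otic vesicle that for epithelium and neural crest. A further 10 of the 23 clusters met no rule and were kept together as the unnamed group, with leading genes such as Zic1 and Msx1 (cluster 1), Cyp26a1 and Vcam1 (clusters 3 and 5), Pcdh9 and Galntl6 (cluster 4) and Vtn, Sparcl1 and Lum (clusters 6 and 8). Cells of a type were summed per library, between 41 cells (cardiac muscle of cKO Rep1) and 1353 cells for a named type. Values below are CPM of those sums, given in the order cHet then cKO of Rep1, cHet then cKO of Rep2, unless a mean over the 4 libraries is stated. In such sums, fewer expressing cells and less RNA per cell cannot be told apart.

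Of the 60 members, 44 reached a mean of 10 CPM in the type where they were highest. The other 16 stayed below it: Efna3, Epha2, Epha8, Epha10, Ephb6, Plxna3, Plxnb3, Robo3, Robo4, Sema3b, Sema4a, Sema4f, Sema4g, Sema6b, Sema6c and Sema7a. At the other end, Efna4, Efna5, Efnb2, Slit2, Slit3, Robo1 and Robo2 were at 10 CPM or more in all 4 libraries of every type. Ligands and receptors were spread evenly: the number of ligands at that level ran from 9 (cardiac muscle) to 15 (MLPs), and the number of receptors from 9 (endothelium) to 14 (MLPs). In 11 of the 44 members (25%), the lowest library of the top type lay above the highest library of every other type. Single clusters within a type or within the unnamed group were not compared in this count. Over all genes of the same level this share was 18.9%, so a separate top type was not much more frequent among the members than among other genes. Of the 11, 4 were in epithelium (Sema3d, Sema3e, Sema3f and Slit2), but Sema3e, Sema3f and Epha5 lost the separate top after thinning to 5000 UMIs per cell, Sema3e and Sema5b with members in the clustering, and Epha5 at a minimum of 1000 genes per barcode.

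**Figure D1:**
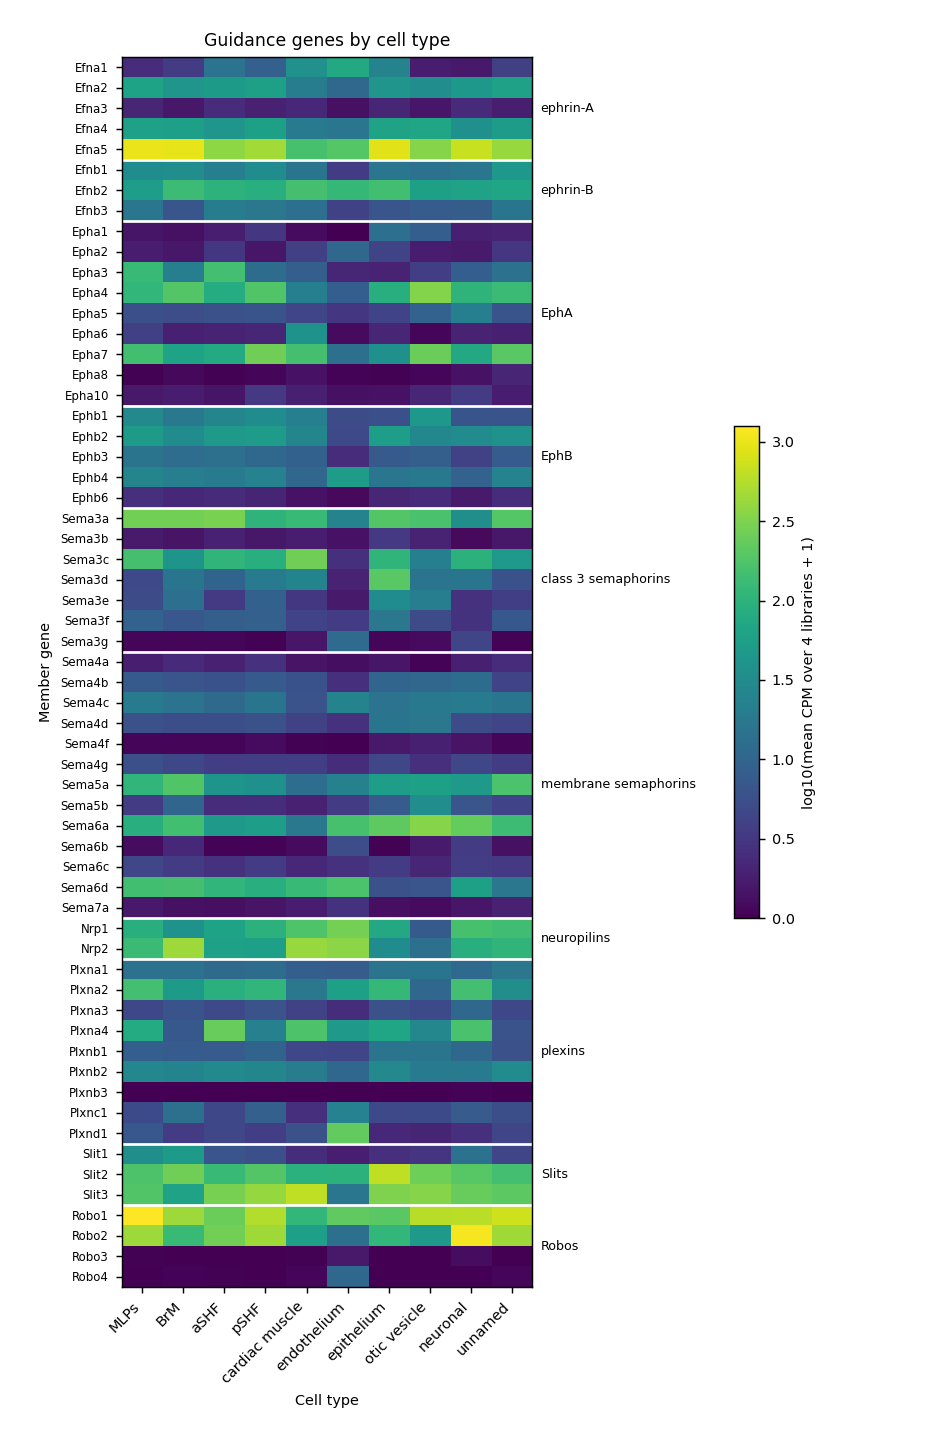
Mean level of the 60 members (rows, by family) in the 10 groups of cells (columns), coloured by log10 of the mean CPM over 4 libraries plus 1. Plxnd1, Robo4 and Sema3g are brightest in endothelium, Sema3d and Slit2 in epithelium, Slit3 and Epha6 in cardiac muscle, Robo2 in neuronal cells and Robo1 in MLPs.

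In endothelium, several receptors stood apart from every other type. Plxnd1, the plexin through which Sema3e restrains vessel growth, was at 167, 176, 264 and 290 CPM in endothelium and at no more than 8.17 CPM in any library of any other type, and it had a UMI in 88.2% to 97.7% of endothelial cells. In otic vesicle cells, which are not known to use it, the share was 1.12% to 4.60% at similar depth (medians of 18316 to 26467 against 16628.5 to 27174 UMIs). Robo4, the endothelial Robo, was at 7.38, 6.60, 12.1 and 12.9 CPM there, and no UMI of it was seen in MLPs, epithelium, neuronal cells, otic vesicle or pSHF. Ephb4, the ephrin-B2 receptor of veins, was at 38.1 to 67.4 CPM in endothelium, above the highest library elsewhere (31.5 CPM, MLPs). Nrp1, which binds both class 3 semaphorins and VEGF, was also highest there (mean 281 CPM), but its libraries (177 to 412 CPM) overlapped with those of cardiac muscle, neuronal cells and the unnamed group. Efna1, an ephrin-A, was highest in endothelium too (mean 75.3 CPM) and overlapped with cardiac muscle.

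Of the ligands known for these receptors, Sema3e was elsewhere and Efnb2 was shared among types. Sema3e was at 26.3 to 36.7 CPM in epithelium, above every library of another type, and at a mean of 0.680 CPM in endothelium, where Plxnd1 was highest. Parts of other types reached the epithelial range. The mean of BrM cluster 13, given below, lay in it. Otic vesicle cells without mesenchyme markers, a choice described below, were at 14.0, 19.2, 26.0 and 27.9 CPM. Within the epithelium, Sema3e was at a mean of 104 CPM in cluster 22 (led by Sostdc1 and Trp63, meeting the ectoderm rule) and at 8.36 CPM in cluster 21 (which met the endoderm rule and, with fewer markers, the ectoderm rule). Efnb2, the partner of Ephb4, had means of 151 CPM in cardiac muscle, 145 CPM in epithelium and 115 CPM in endothelium, and these 3 types overlapped in their libraries. Sema3g, a ligand for Nrp2 made by arteries, was in contrast highest in endothelium itself, at 6.72, 5.41, 15.0 and 17.3 CPM, and its mean stayed under 1 CPM elsewhere except in neuronal cells (3.40 CPM).

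Several secreted cues were highest in epithelium. Sema3d was at 201, 151, 200 and 251 CPM in epithelium. Slit2 was at 490 to 846 CPM there, and its highest library elsewhere was at 326 CPM (BrM). Both had a separate top type. Sema3f, another Nrp2 ligand, peaked there too, at a low level (12.6 to 18.2 CPM). Sema6d, a transmembrane ligand of Plxna1 and Plxna4, showed the opposite pattern, with a mean of 4.93 CPM in epithelium against 168 CPM in endothelium and 151 CPM in BrM.

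In cardiac muscle, the ligands Slit3 and Sema3c had their highest means, with libraries that overlapped those of pSHF and MLPs. Cardiac muscle held Slit3 at 447, 378, 878 and 849 CPM and Sema3c, which guides neural crest into the outflow tract, at 169, 87.6, 384 and 419 CPM. Epha6 reached 11.7 to 68.9 CPM in cardiac muscle and no more than 5.08 CPM in any library elsewhere, from a UMI in 8.51% to 19.2% of these cells (median depths of 18216 to 25851 UMIs), against 0.191% to 0.481% of endothelial cells. Nrp2 was high in cardiac muscle as well (mean 413 CPM), next to BrM (443 CPM) and endothelium (365 CPM), and these 3 did not differ beyond the spread of their libraries. In aSHF, Plxna4 was at 196 to 268 CPM, overlapping with cardiac muscle and neuronal cells, and Epha3 at 134 to 167 CPM, overlapping with MLPs.

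Robo receptors peaked in other cells than the Slits. Robo1 was at 1037 to 1535 CPM in MLPs, above every library of other types, and Robo2 at 724 to 1497 CPM in neuronal cells, above the 591 CPM of the highest library elsewhere (unnamed group). That group merges clusters, and in its cluster 4 the mean of Robo2, given below with the otic vesicle, lay above the lowest neuronal library. MLPs also had the highest mean of Efna5 (1021 CPM), a ligand of the EphA receptors, though BrM lay at 964 CPM with overlapping libraries. The EphA receptors that bind it peaked apart from each other: Epha4 in otic vesicle (226 to 426 CPM), Epha7 in pSHF (mean 263 CPM) next to otic vesicle (252 CPM), Epha3 in aSHF, and Epha5 in neuronal cells (15.3 to 28.4 CPM, a separate top). Sema6a and Sema5b were highest in otic vesicle (means 341 and 32.0 CPM), and Slit1 and Sema5a in BrM (means 47.5 and 179 CPM). Sema4d and its receptor Plxnb1 were both low and both highest in otic vesicle (means 15.8 and 15.0 CPM), followed closely by epithelium. Plxna2, a partner of Sema3c and Sema6a, was at a mean of 148 CPM in MLPs and 147 CPM in neuronal cells, and at 347 CPM in epithelial cluster 22. Other members had close levels in their leading types: Ephb2 had means of 53.0 CPM in epithelium and 51.1 CPM in pSHF, and Ephb3 of 14.8 CPM in MLPs and 13.03 CPM in aSHF, each pair with overlapping libraries. Efnb3 had means of 19.5 CPM in aSHF and 15.7 CPM in pSHF, and its aSHF libraries overlapped with the 19.9 CPM of cardiac muscle in cKO Rep1.

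**Figure D2:**
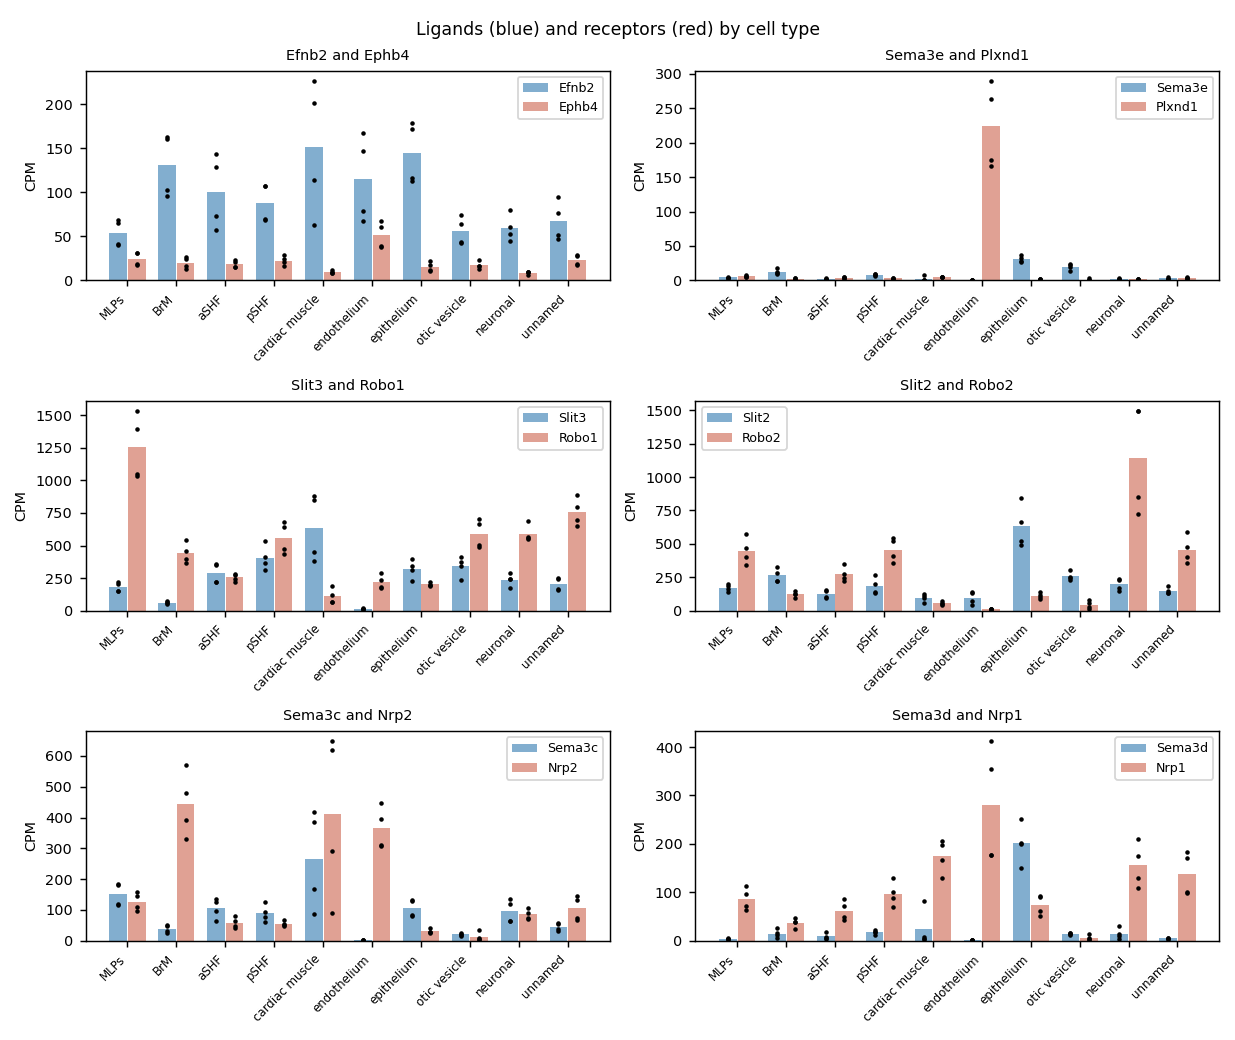
CPM of 6 ligands (blue) and a receptor known for each (red) in the 10 groups of cells; bars are means and dots the 4 libraries. Plxnd1 stands out in endothelium while Sema3e is in epithelium and otic vesicle, and Robo1 and Robo2 peak in MLPs and neuronal cells while Slit3 and Slit2 peak in cardiac muscle and epithelium.

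The genotypes were compared in each of the 10 groups by edgeR's quasi-likelihood test with the replicate as a block. A gene is called at a Benjamini-Hochberg adjusted p under 0.05 over all genes tested in that group. Low counts left 58 of the 60 members with a test in at least 1 group (all but Plxnb3 and Robo3) and 33 in every group, 471 tests in all. Of these, 18 were called (3.82%), 13 higher and 5 lower in cKO, from 13 different members. The calls depend on the fit: DESeq2 called 5 of them, Sema3a and Plxna4 in BrM and Sema3a, Epha7 and Robo2 in the unnamed group, and edgeR without the replicate block called 0 (5 at an unadjusted p under 0.05). With other size factors, thinned cells, a lower gene minimum, doublets kept or members in the clustering, Plxna4, Sema3a and Sema3d in BrM stayed called under each, and each of the other calls was lost under at least 1 of these settings. The lower gene minimum, 1000 per barcode, changed cHet Rep1 most. It kept 17982 cells of that library (median 3973.5 UMIs), against 5869 (median 19293 UMIs) in the fit used throughout. In the other libraries it kept 7160 to 13181 cells, against 6291 to 11938. Without the filter on low counts, edgeR called 24 members in all but 0 of 59 in BrM (11 at an unadjusted p under 0.05), where it called 0 genes of any kind, so the calls in BrM rest on that filter. The most of the 24 were in the unnamed group, 10 of 59, where 661 of 25384 genes were called. Over all genes, 633 of 135181 tests were called (0.468%), 0.275% higher and 0.193% lower. Counting instead, without a p, the tests in which Rep1 and Rep2 each moved by over 0.25 (log2) in 1 direction, 82 member tests (17.4%) qualified against 7.79% of all, 39 higher and 43 lower. In size, the median log2 fold change of the members, signs ignored, was between 0.12 and 0.23 across the groups, against 0.08 to 0.14 for all genes.

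In 4 groups, endothelium, epithelium, pSHF and cardiac muscle, edgeR called 0 of 184 member tests, where it called 0.104% of all genes. 24 of the 184 had an unadjusted p under 0.05, and DESeq2 called 0 as well. Other settings did call members there: 4 in endothelium with doublets kept, 2 to 3 in pSHF with doublets kept, at 1000 genes per barcode, with members in the clustering or without the count filter (Nrp1 and Slit3 higher in all 4 settings), and 2 to 3 in cardiac muscle with members in the clustering or without the count filter (Sema3a lower and Sema3d higher in both). Calls over all genes rose in these settings too. In endothelium 144 of 13481 genes were called with doublets kept, against 8 of 12925 in the fit used throughout. In pSHF the number was 71 to 118 against 31, and in cardiac muscle 43 and 62 against 15. Of the endothelial receptors above, Plxnd1 had a log2 fold change of 0.11 ± 0.06 (SE, n = 2 libraries per genotype) and Ephb4 of 0.11 ± 0.09, neither called. The values that follow are those of the 3 members with the largest log2 fold change among members at a mean of 10 CPM or more whose replicates had the same sign, and none of them was called in the fit used throughout. In endothelium they were 0.27 ± 0.07 for Sema6a, 0.26 ± 0.08 for Sema6d and -0.22 ± 0.10 for Plxna4. In epithelium they were 0.40 ± 0.14 for Nrp2, -0.39 ± 0.17 for Epha1 and 0.38 ± 0.11 for Epha7. Of these values, that of Epha1 was -0.59 in Rep1 and -0.29 in Rep2. That of Epha7 was 0.17 with doublets kept and 0.16 at 1000 genes per barcode. In pSHF they were 0.73 ± 0.21 for Epha3, 0.39 ± 0.15 for Sema3d and 0.34 ± 0.08 for Nrp1, of which Epha3 was at 0.24 in Rep1 and 0.99 in Rep2, and at 0.34 after thinning. In cardiac muscle they were -0.64 ± 0.27 for Efnb1, -0.57 ± 0.13 for Sema3a (105, 75.9, 192 and 118 CPM) and 0.50 ± 0.15 for Slit2. Sema3d in cardiac muscle was high in the 41 cells of cKO Rep1 alone, with values of 7.76, 82.2, 3.88 and 3.35 CPM.

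BrM, the progenitors of the muscles of jaw and face, held the most calls: 8 of 51 members, where 1.81% of all genes were called. Sema3a, a secreted ligand of Nrp1 with A-type plexins, rose from 147 to 206 CPM in Rep1 and from 319 to 437 CPM in Rep2, a log2 fold change of 0.50 ± 0.07 (adjusted p = 5.6e-05). Sema3d rose from 5.49 to 11.5 CPM and from 15.6 to 26.8 CPM (0.90 ± 0.14), with a UMI in 8.81%, 14.9%, 15.6% and 19.96% of BrM cells against 1.20% to 2.68% of endothelial cells, where its mean was 1.06 CPM. Plxna4, a plexin that signals for Sema3a, fell from 15.1 to 3.30 CPM and from 4.33 to 1.95 CPM (-1.65 ± 0.22), the largest change of any called member. Even in cHet this was a low level beside 238 CPM in aSHF, and the cKO values lay below those of the unnamed group (3.80 to 6.13 CPM). Slit1 fell from 40.9 to 32.2 CPM and from 69.5 to 47.3 CPM (-0.44 ± 0.09), while Nrp2, at 330, 392, 481 and 571 CPM, rose by 0.27 ± 0.07. Sema3e rose by 0.57 ± 0.15, from 9.41 to 17.3 CPM and from 10.4 to 12.6 CPM, and after thinning to 5000 UMIs per cell it was at 0.00 and not called. Nrp1, at 37.99, 24.1, 46.7 and 38.6 CPM, and Sema6d, at 97.6, 74.3, 235 and 196 CPM, were lower in cKO (-0.41 ± 0.10 and -0.29 ± 0.07). The 8 endothelium markers, whose cells have the highest means of both genes, summed in BrM to 50.8, 31.5, 44.9 and 33.5 CPM (all 8 found in every library), and the 6 BrM markers to 388, 483, 638 and 811 CPM. For Plxna4, whose levels are highest in aSHF, cardiac muscle and neuronal cells, the marker lists of those types moved in different directions in BrM. The neuronal markers (64.2, 52.9, 31.0 and 29.3 CPM) and cardiac muscle markers (20.2, 17.0, 32.4 and 30.0 CPM) were lower in cKO. The aSHF markers were higher (279, 309, 548 and 577 CPM). The part of all these markers in the changes was not tested. The replicates differed in level too: for Sema3a, both Rep2 libraries lay above both of Rep1. Plxna4 rested most on Rep1, at a log2 fold change of -2.10 there and -1.08 in Rep2, and the high value was that of cHet Rep1, the library that stood apart. In 1 replicate alone, Nrp1 was at -0.25 (Rep2), Slit1 at -0.28 (Rep1) and Sema3e at 0.31 (Rep2).

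BrM consisted of 2 clusters, 7 (with Vgll3, Lhx2 and Tlx1 among its leading genes) and 13 (with Lhx2 and Hlx among its leading genes), and their mix differed between genotypes in both replicates. Cluster 13 made up 38.8% (cHet Rep1) and 47.0% (cKO Rep1) of BrM cells, and 25.5% (cHet Rep2) and 34.9% (cKO Rep2). The clusters differed widely in 2 of the genes called: Sema6d had a mean of 230 CPM in cluster 7 and 12.7 CPM in cluster 13, and Sema3e 3.28 and 26.9 CPM. Each cluster was therefore fitted alone, a step added after seeing the data. Within cluster 7, Sema3a rose by 0.72 ± 0.08, Sema3d by 1.14 ± 0.15 and Nrp2 by 0.31 ± 0.07, and Plxna4 and Slit1 fell by 1.43 and 0.52, all called by edgeR. There Sema6d was at -0.03 ± 0.08, Sema3e at 0.00 ± 0.34 and Nrp1 at -0.24 ± 0.11, none called. Cluster 7 alone gave 11 of 47 members called, where 1.48% of all genes were, among them Ephb1, Epha3, Robo1 and Sema6a higher and Slit3 and Sema5a lower. Cluster 13 gave 1 of 45, Epha4 (0.43 ± 0.08), where 0.194% of all genes were called. Its values for Sema3a (0.28 ± 0.08), Slit1 (-0.41 ± 0.10), Sema3d (0.53 ± 0.25) and Nrp2 (0.14 ± 0.07) had the signs of cluster 7 without a call.

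**Figure D3:**
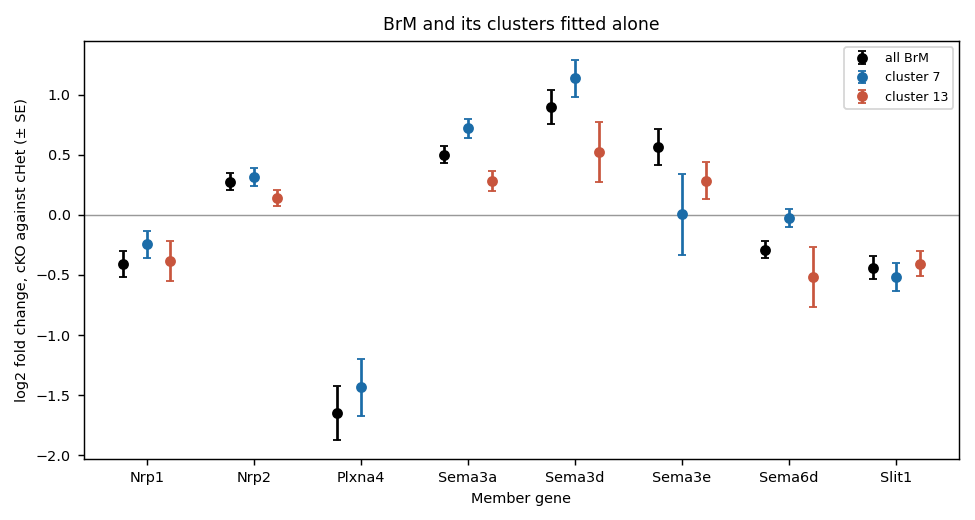
log2 fold change of cKO against cHet (± SE, n = 2 libraries per genotype) of the 8 members called in BrM, fitted over all BrM cells (black) and in clusters 7 (blue) and 13 (red) alone; Plxna4 had too few counts for a fit in cluster 13. Sema3e and Sema6d sit near 0 in cluster 7, whereas Sema3a, Sema3d, Nrp2, Plxna4 and Slit1 do not.

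Sema3d, Sema3a and Sema3e are neighbours, which is why their promoters are shown together. They lie in this order on the plus strand of chromosome 5, within 1873 kb (mm10/GRCm38, GENCODE M21): Sema3d at chr5:12383385-12588948, Sema3a at chr5:13125414-13602565 and Sema3e at chr5:14025276-14256689, with Sema3c a further 3318 kb on, where it was at -0.13 ± 0.10 in BrM and not called. The first 250 bases of the entry for each in a table of RefSeq promoters (GRCm38.p6, plus strand, 5′ to 3′) are given with CG dinucleotides in capitals, and beside them those of Nrp2 (chr1:62703067-62703316), which was also higher in BrM. The Sema3d window is chr5:12382916-12383165, whose last bases lie past the gene start in RefSeq, and the Sema3e window chr5:14025026-14025275. The Sema3a window (chr5:13396534-13396783) lies inside the gene, far from the gene start in both RefSeq and GENCODE, so it is not the promoter at that start.
Sema3d: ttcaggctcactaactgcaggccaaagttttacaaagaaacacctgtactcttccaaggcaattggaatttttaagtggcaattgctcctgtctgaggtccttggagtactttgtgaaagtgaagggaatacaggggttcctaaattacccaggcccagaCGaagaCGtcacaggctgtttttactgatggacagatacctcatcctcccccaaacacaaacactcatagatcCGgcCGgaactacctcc
Sema3a: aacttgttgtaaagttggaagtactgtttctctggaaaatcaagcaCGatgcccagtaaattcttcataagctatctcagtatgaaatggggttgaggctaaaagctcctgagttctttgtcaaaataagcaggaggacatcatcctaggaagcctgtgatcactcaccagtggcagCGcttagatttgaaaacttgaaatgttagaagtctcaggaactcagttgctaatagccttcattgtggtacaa
Sema3e: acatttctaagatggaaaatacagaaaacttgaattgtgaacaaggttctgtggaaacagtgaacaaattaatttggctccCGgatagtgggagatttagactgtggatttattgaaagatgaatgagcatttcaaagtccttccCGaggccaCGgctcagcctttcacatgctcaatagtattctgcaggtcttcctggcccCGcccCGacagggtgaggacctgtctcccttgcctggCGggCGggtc
Nrp2: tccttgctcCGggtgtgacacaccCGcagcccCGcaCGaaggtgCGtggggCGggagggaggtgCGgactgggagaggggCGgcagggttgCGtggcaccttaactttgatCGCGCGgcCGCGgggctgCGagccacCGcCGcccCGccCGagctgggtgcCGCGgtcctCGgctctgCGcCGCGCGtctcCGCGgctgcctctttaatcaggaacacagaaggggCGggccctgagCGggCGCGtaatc
The windows of Sema3d, Sema3a and Sema3e held 4, 2 and 7 CG dinucleotides, and that of Nrp2 held 32, where the median was 16 over the 53 members with an entry and 6 over all 27025 genes. The half-site bound by T-box factors such as Tbx1 (GGTGTGA, either strand) was in the windows of Nrp2 and Efna1, 2 of 53 with the first entry of each gene, and in 3.31% of all windows. These are letter matches and say nothing about binding.

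In MLPs, the pool from which pharyngeal muscle and heart progenitors arise, 3 of 52 members were called, all receptors and all higher in cKO, where 0.574% of all genes were called. Ephb1 rose from 21.8 to 27.3 CPM and from 25.5 to 37.2 CPM (0.47 ± 0.09). Epha3 rose from 101.2 to 121 CPM and from 126 to 153 CPM (0.29 ± 0.06). Robo2 rose from 343 to 400 CPM and from 465 to 573 CPM (0.28 ± 0.06). These calls were lost in other settings: edgeR called 0 members of MLPs after thinning, with doublets kept and with members in the clustering, and 1 (Epha3) at 1000 genes per barcode, and DESeq2 called 0. Calls over all genes in MLPs fell in these settings as well, from 83 to 20, 6, 18, 12 and 1 in the same order. Malat1, a nuclear RNA often read as a sign of RNA quality, was higher in cKO in both replicates in MLPs (5136, 5362, 3851 and 4391 CPM) and in the unnamed group described next (3965, 4101, 2636 and 3044 CPM), and its part in the calls was not tested. In MLPs the 6 BrM markers (70.7, 75.4, 99.2 and 149 CPM) and the 5 MLP markers (215, 239, 347 and 385 CPM) were higher in cKO too. So were the pSHF, neuronal and neural crest markers, while those of epithelium, endothelium, otic vesicle and cardiac muscle were lower. The part of these markers was not tested either.

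The unnamed group gave 4 of 57 members called, where 0.901% of all genes were called. It made up 49.99% of the cells of cHet Rep1 and 66.5% of those of cKO Rep1. In Rep2 its share was 52.3% in cHet and 51.0% in cKO. Sema3a rose from 134 to 164 CPM and from 197 to 257 CPM (0.36 ± 0.04). Epha7 rose from 144 to 168 CPM and from 224 to 280 CPM (0.29 ± 0.05), and Robo2 by a like amount (0.27 ± 0.05). Epha3, at 9.64 to 18.6 CPM, rose by 0.38 ± 0.07. At a minimum of 1000 genes per barcode, edgeR called 0 of 58 members in the group and 0 genes of any kind (17 members at an unadjusted p under 0.05), so these 4 calls were lost there. That setting kept 17982 cells of cHet Rep1 against 5869. Of the 7435 cells in its largest unnamed cluster, 6499 came from that library. Since the group mixes clusters, 9 of them were also fitted alone, again after seeing the data. They gave 24 of 408 member tests called (5.88%), 20 higher and 4 lower, where 0.879% of all genes were called. Sema3a was higher in both replicates in 8 of 9 clusters and called higher in 5 of them (1, 3, 4, 5 and 6), with the largest of those values in cluster 3 (0.63 ± 0.06). Cluster 8 was the exception, at 0.02 ± 0.06. Robo2 was called higher in clusters 3, 4 and 8 and Epha7 in clusters 1, 3 and 4, whereas Epha3 was called in cluster 1 alone. In cluster 18 (led by Pax3 and Tcf15), Sema3d was called higher (0.76 ± 0.15), and in cluster 19 (led by Tagln and Myl9) Slit2 was (0.89 ± 0.13). Sema3c was called lower in clusters 4 and 8 (-0.41 ± 0.09 and -0.32 ± 0.08).

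**Figure D4:**
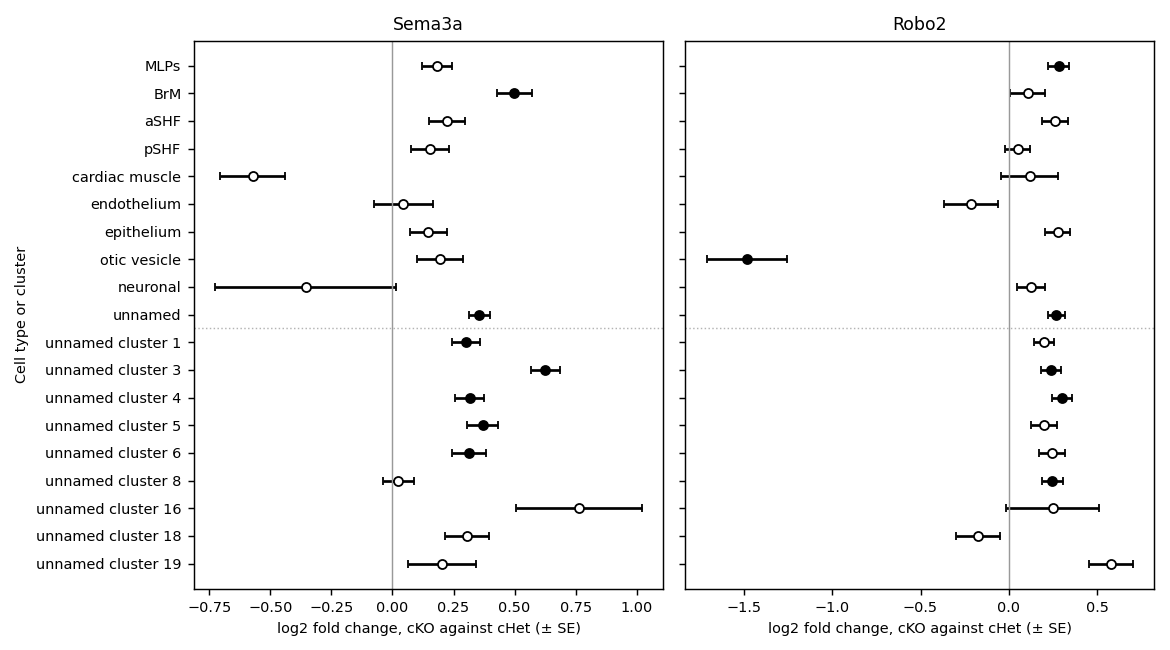
log2 fold change of cKO against cHet (± SE, n = 2 libraries per genotype) of Sema3a and Robo2 in each group of cells and, below the dotted line, in each unnamed cluster fitted alone; filled circles are called. Sema3a lies above 0 in 8 of the 10 groups and below it in cardiac muscle and neuronal cells, and Robo2 stands apart in otic vesicle.

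The remaining 3 calls were 1 per group. In neuronal cells (1 of 42 members called, where 0.159% of all genes were), Slit2 rose from 149 to 230 CPM and from 171 to 238 CPM (0.56 ± 0.09). Slit2 was no longer called with other size factors, after thinning, with doublets kept, without the count filter or by DESeq2. In the neuronal sums the 6 BrM markers (37.6, 51.2, 5.11 and 18.2 CPM, 5 found in every library) and the 6 aSHF markers (391, 555, 842 and 938 CPM, all found) were higher in cKO too, as were the 6 neuronal markers themselves (2353, 3198, 5939 and 6311 CPM). In aSHF itself the aSHF markers summed to 689, 639, 1063 and 1139 CPM. The 6 epithelium markers, whose cells have the most Slit2, were lower in cKO in the neuronal sums (359, 268, 398 and 319 CPM, all found). The ectoderm, endoderm, otic vesicle, pSHF and mesenchyme markers were lower in both replicates as well. The part of these markers in the call was not tested. Sema3d and Sema6d had values of 1.11 ± 0.23 and 0.62 ± 0.13 there without a call. In aSHF Sema6a was at -0.31 ± 0.11, Ephb3 at -0.30 ± 0.17 and Robo2 at 0.26 ± 0.07, not called. These values moved with the setting: Robo2 was at 0.44 and called after thinning, Ephb3 was at -0.90 after thinning and at -0.07 in Rep1 alone, and Sema6a was at -0.56 in Rep1 and -0.11 in Rep2. In aSHF (1 of 47 members called, where 0.225% of all genes were), Sema3d rose from 4.34 to 6.12 CPM and from 7.24 to 18.003 CPM (1.03 ± 0.21, and 0.45 in Rep1 alone). The share of aSHF cells with a UMI of Sema3d was 5.34%, 4.97%, 5.31% and 6.09%, against 1.20% to 2.68% of endothelial cells. The epithelium markers, whose cells have far more Sema3d, summed in aSHF to 179, 286, 135 and 164 CPM (all 6 found in every library). Among aSHF cells without a UMI of these markers, 48 to 170 per library, Sema3d had 1, 1, 16 and 18 UMIs and was not called (0.40 ± 0.54, adjusted p = 1.0 by edgeR). This setting was added after seeing the data. In those cells, edgeR called 0 of 10926 genes (0%) at an adjusted p under 0.05, with 424 genes at an unadjusted p under 0.05. They were 26.7%, 15.9%, 37.0% and 31.4% of aSHF cells, so most of the type was left out and the lost call decides nothing.

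In otic vesicle (1 of 38 members called, where 0.182% of all genes were), Robo2 fell from 76.4 to 14.6 CPM and from 59.1 to 30.2 CPM (-1.48 ± 0.23, and -0.94 in Rep2 alone). It was no longer called with other size factors, after thinning, at 1000 genes per barcode, with doublets kept or by DESeq2. The 6 mesenchyme markers (5 found in every library) moved with Robo2, summing to 105, 12.02, 22.9 and 10.6 CPM, and Robo2 was at a mean of 804 CPM in unnamed cluster 4. The BrM markers (32.9, 2.15, 8.49 and 2.16 CPM) and the MLP markers (14.6, 2.58, 1.96 and 0.589 CPM) were lower in cKO as well. Each of these lists had 1 gene found in every library. The share of otic cells with a UMI of Robo2 was 31.0%, 23.6%, 30.6% and 18.7%, against 11.5% to 15.7% of endothelial cells. In the 60, 68, 88 and 224 otic cells without a UMI of the mesenchyme markers, Robo2 was at 23.9, 15.8, 41.3 and 34.7 CPM and no longer called (-0.34 ± 0.20, adjusted p = 0.95 by edgeR). Plxna4 was the only member called in these cells, at 10.7, 34.5, 21.8 and 36.4 CPM (1.02 ± 0.23, adjusted p = 0.017 by edgeR), where 0.328% of all genes were called. In all otic cells its value was 0.60 ± 0.19, which was not called. The choice of otic cells without these markers was also made after seeing the data. Efnb1 (-0.86 ± 0.27) and Nrp2 (-1.71 ± 0.50, from 34.8 to 2.58 CPM and from 8.16 to 6.67 CPM) were not called in otic vesicle either. Nrp2 was called lower without the count filter and with members in the clustering (-1.68 each). In the otic cells without mesenchyme markers it was at -1.01 ± 0.44 without a call. Efnb1 was at -0.26 at 1000 genes per barcode.

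**Figure D5:**
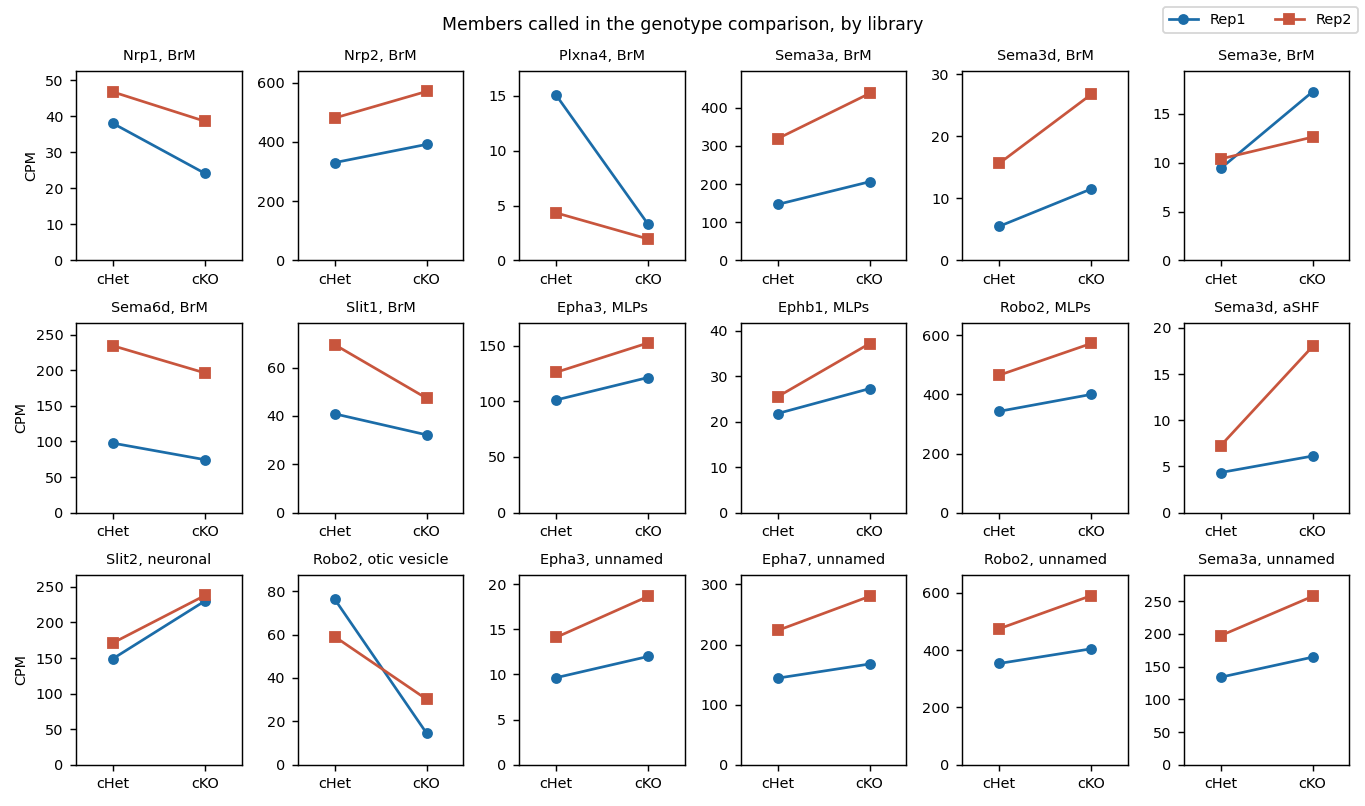
CPM of the 18 called member and cell type pairs in cHet and cKO, with Rep1 as blue circles and Rep2 as red squares joined by a line within each replicate. In each panel both lines run the same way, and in BrM both Rep2 values of Sema3a lie above both Rep1 values.

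Whether an effect differed between the 10 groups was tested in 1 fit over all of them. Of 58 members tested, 3 had a genotype effect that differed between groups, Plxna4 and Nrp1 (adjusted p = 0.013 each by edgeR) and Sema3a (0.043), where 0.623% of all genes did. Sema3a lost this call with other size factors (0.053) and with members in the clustering (0.065). Plxna4 was at -1.65 in BrM, at -0.35 to -0.06 in 8 other groups and at 0.60 in otic vesicle. Nrp1 was at -0.41 in BrM and at 0.48 ± 0.12 in cardiac muscle (130 and 167 CPM in cHet, 198 and 206 CPM in cKO). In otic vesicle, where it was low (2.36 to 14.6 CPM), its value was -1.08 ± 0.41, but in the otic cells without mesenchyme markers it had 3, 12, 2 and 6 UMIs, too few for a fit, and was higher in cKO in both replicates (2.47, 6.78, 0.929 and 1.41 CPM). Sema3a was at 0.50 in BrM and -0.57 in cardiac muscle. For the other 10 members called in some group, a difference between groups was not called in this fit. After thinning, 9 of 50 members had one, Robo2, Nrp2 and Epha7 of those 10 among them. Over all genes the calls rose too, from 104 of 16681 to 215 of 13555.

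Several called members are long genes, and length is a measured property that moved with calling. A span of at least 200000 bp on the genome was found for 15 of the 60 members and for 1077 of 32235 genes, and 14 of the 18 calls fell on such members (140 of the 471 tests), 11 higher and 3 lower. Among all genes, 7.93% of those this long were called in BrM against 1.396% of shorter ones, and 5.71% against 0.61% in the unnamed group. Of the called genes this long, 49 of 73 in BrM, 18 of 25 in MLPs and 49 of 59 in the unnamed group were higher in cKO, while the median log2 fold change of all genes this long was within 0.02 of 0 in these 3 groups. The part of gene length in the calls was not tested.

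The other guidance genes, a list of 64 genes of netrin signalling, of other cues and of the cytoplasmic partners of these receptors, drawn up with earlier results of these data known, gave 8 of 556 tests called (1.44%), 7 higher and 1 lower, where 0.468% of all tests were called. The netrin receptors Dcc and Unc5c rose in the unnamed group (0.45 ± 0.05 and 0.33 ± 0.04), and Unc5b fell in BrM (-0.76 ± 0.20). Ntng1, a membrane-bound netrin, rose in MLPs, BrM and the unnamed group (0.30 ± 0.06, 0.31 ± 0.08 and 0.42 ± 0.04). Dscam, a further netrin receptor, rose in BrM (0.70 ± 0.14) and Flrt3, which binds Unc5 and Robo receptors, in aSHF (0.52 ± 0.11). The endothelium markers fell with Unc5b in BrM, and the epithelium markers rose with Flrt3 in aSHF, by the sums given above, as did the 5 pSHF markers there (62.3, 119, 106 and 132 CPM, all found in every library). Among aSHF cells without a UMI of the epithelium markers, edgeR called 0 of 47 genes of the list, with 1 at an unadjusted p under 0.05. These cells are a minority of aSHF and gave 0 calls among all genes, so this decides nothing. The part of these markers in both calls was not tested further. At 1000 genes per barcode all 8 calls were lost: edgeR called 0 genes of the list in BrM, MLPs, aSHF and the unnamed group, with 9, 9, 4 and 8 at an unadjusted p under 0.05. Of all genes it called 44, 12, 6 and 0 there, in a setting that added cells mostly to cHet Rep1. With the members and the genes of this list in the clustering it called 0 in BrM, MLPs and aSHF, with 7, 10 and 7 at an unadjusted p under 0.05. DESeq2 called 3 of the 8, Dcc, Ntng1 and Unc5c in the unnamed group.

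The levels of the called members over the 10 groups were compared with those of all other genes by Pearson's r of log2(CPM + 1), as a description over 10 points that share 4 libraries. The genes most like them were Olfml3 for Epha3 (r = 0.94), Plod2 for Epha7 (0.91), Gnpat for Ephb1 (0.91), Ssh1 for Nrp1 (0.98) and Pde4a for Nrp2 (0.92). For Robo2 they were Lrp3, Ptprs and Shisa4 (0.95 to 0.96), and for Slit2 Klhl32 (0.97). The closest genes to Sema3a, Sema3d and Sema3e were Glrb (0.94), Syde2 (0.92) and Aldh5a1 (0.94), and those to Plxna4, Sema6d and Slit1 were Sertad2 (0.84), Antxr2 (0.92) and Cdh12 (0.93).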

How the data were processed

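Single-cell RNA-seq of 4 libraries (3′ ends of transcripts) was read as the count matrices that the authors deposited: raw UMI counts per gene and barcode, made on mm10 with Cell Ranger, whose version is 7.0.1 in the Rep1 headers, 8.0.1 in those of Rep2 and 8.0.1 throughout in the submitters' processing notes. The correction for free RNA that the study describes was made after these counts, so none is included. Kept barcodes had at least 3000 genes, at most 10% mitochondrial and 5% hemoglobin UMIs, and were not among the highest Scrublet scores, up to the doublet share of each kit (0.8% or 0.4% per 1000 cells). Library totals ran from 179454146 to 234726019 UMIs.

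After scaling to 10000 UMIs a cell and taking logs, the 2000 most variable genes other than the members and the 64 other guidance genes gave 30 principal components, which were aligned between replicates and clustered (20 neighbours, Leiden resolution 0.8, and 0.3 within the epithelium; scanpy 1.11.5, leidenalg 0.10.2, Python 3.11.15). The setting with members in the clustering let the other guidance genes in as well. A cluster was named by at least 3 markers of a list in 10% of its cells and 2-fold above the rest after adding 5 CPM. Summed counts per library and type were tested with edgeR 4.0.16 (R 4.3.3; TMM, filterByExpr, quasi-likelihood) with the replicate as a block, and p-values were adjusted by Benjamini-Hochberg over all genes of a type. SE is the log2 fold change divided by the square root of F. DESeq2 1.42.0 was an alternative. The replicate number marks the kit: deviations of libraries with the same number correlated at 0.653 to 0.853 in the 10 groups. The fit was tested on simulated data for endothelium, MLPs and cardiac muscle, with the same dispersion for every gene. It recovered 90 to 99 of 100 well-counted genes changed by 1 (log2) and 37 to 68 of 100 changed by 0.5. There were 4 to 13 false calls. BrM and the unnamed group, with most of the calls, were not simulated.

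The members and gene lists were chosen with earlier results of these data known. Named genes were the members called in any type, the 3 highest of each family, known ligand and receptor pairs, and in each type the 3 largest changes of the same sign in both replicates at a mean of 10 CPM or more; also pathway genes that were called, and the genes most like a called member. Coordinates are those of GENCODE M21, which held 32235 of the 32285 gene identifiers; promoters are from RefSeq. Embryos were pooled, so p-values say nothing about the spread between embryos. With the replicate as a block, they rest on how alike the genotype differences of both replicates were, with a spread partly shared across genes.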

Additional observations from a re-analysis of the deposited data

Results flagged for a closer look

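The genotype effect differed between the 10 groups of cells for 3 members, by a test of the difference itself in edgeR with Benjamini-Hochberg adjustment over all genes. For Plxna4 the adjusted p was 0.0134, with a log2 fold change of -1.65 in BrM and 0.60 in otic vesicle. For Nrp1 the adjusted p was 0.0134, with -0.41 in BrM, 0.34 in pSHF and 0.48 in cardiac muscle. For Sema3a the adjusted p was 0.0434, with 0.50 in BrM and -0.57 in cardiac muscle. It was 0.0535 with DESeq2's size factors and 0.0649 where members could enter the clustering. The groups of a replicate come from the same libraries, and what lies behind the differences was not tested.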

How the results depend on the processing

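The 18 member calls became 11 with each cell thinned to 5000 UMIs, 8 at a minimum of 1000 genes per barcode, 11 with doublets kept and 5 by DESeq2, and the cause was not tested. The minimum of 1000 genes added cells mostly to cHet Rep1 (17982 against 5869). Over all genes, the calls in BrM went from 264 to 86, 44, 70 and 18 in these settings. Those in the unnamed group went from 163 to 150, 0, 119 and 99. In other groups they rose in some settings, as in endothelium with doublets kept (from 8 to 144). Without the replicate block that pairs the libraries of a kit, 0 members were called by edgeR (5 at an unadjusted p under 0.05, 5 by DESeq2 with the block), and leaving out 1 library at a time in that fit gave 0 to 1. The 8 calls of the other guidance genes became 0 without the replicate block, 3 by DESeq2 and 15 without the count filter. They became 5 after thinning and 2 at 1000 genes per barcode, where none of the 8 was kept. The 3 members whose effect differed between groups became 9 after thinning, where such calls over all genes went from 104 of 16681 to 215 of 13555. Plxna4, Sema3a and Sema3d in BrM stayed called with other size factors, after thinning, at 1000 genes, with doublets kept, with members in the clustering and in cluster 7 alone, but not without the count filter, where edgeR called 0 of 59 members and 0 genes in BrM (11 members at an unadjusted p under 0.05) and 24 members over all groups. DESeq2, run with the filter, called 2 of 51 members in BrM. DESeq2 did not call Sema3d. Within the unnamed group, the sign turned for Epha3 in cluster 8 (-0.10) and for Robo2 in cluster 18 (-0.18). Sema3e in BrM was at 0.00 after thinning. The count of members with a separate top type was 10 to 15 in all alternatives, against 11. The smallest sum held 41 cells.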
